A study of Mus musculus with 80 samples.

Results

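Alleles of *Ptbp1* that carried A-to-G changes at 2 or more adenines of the sgRNA target sequence were collected from Hepa1-6 cells, a mouse hepatoma line from the C57L strain. Each table row is an allele, that is a distinct sequence of a window of 40 bases with its number of reads, and the protospacer is the stretch of 20 bases in this window that the sgRNA pairs with. A row was counted when neither the read nor the reference had a gap and G stood at 2 or more reference adenines of positions 1 to 20, counted from 1 at the 5′ end of the protospacer. The alleles were thus chosen by their own measured changes, so their presence and their number of edits are a description and not a test. There were 1939 such rows among 9907 rows of the 60 edited samples. They held 50155 of 272286 reads (18.4%), against 110698 reads with exactly 1 edit.

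The cells had received plasmids for 1 of 7 sgRNAs against splice sites of *Ptbp1*, the gene of a splicing repressor, at 400 ng of total DNA and 0.5 µl of Lipofectamine. The sgRNA came together with SpCas-ABE8e, SpCas-ABEmax, SpG-ABE8e or SpG-ABEmax in 20 groups of 3 samples, or alone in 7 control groups of 3 samples, of which that of the exon 7 donor has 2 here. SpG editors were used at all 7 sites and SpCas editors at exon 1, the exon 7 donor and the exon 8 donor. Samples whose description gives only ABE are named ABEmax here, and the tables hold no sequence of the editor, so the editor of a sample rests on its label. All groups share the cell line and the transfection, and edited cells were not separated from cells that took up no plasmid. The series is described as holding 3 biological replicates.

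An adenine base editor joins a Cas9 that nicks DNA to a deaminase evolved from the bacterial enzyme TadA. The sgRNA opens the target DNA, and the deaminase turns adenines of the exposed strand into inosine, which is read as guanine. SpCas denotes the Cas9 of Streptococcus pyogenes, which needs an NGG motif (PAM) after the target, and SpG is a variant of it that accepts NGN. ABEmax and ABE8e differ in the deaminase, and that of ABE8e was evolved for faster deamination. Adenines other than the intended one that lie within reach are called bystanders, and an allele with several edits holds such bystanders on one DNA molecule.

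The 7 protospacers lie in *Ptbp1* on chromosome 10 (GRCm39). They are shown first because every set of edits is named by positions in them, with all adenines in capitals.
exon 1 splice site, chr10:79690542-79690561, minus strand: ActtAcccgtccAtggcAcA
exon 3 acceptor, chr10:79694579-79694598, plus strand: ttctcAgcggggAtccgAcg
exon 3 donor, chr10:79694644-79694663, minus strand: cttAcctgctgAggcAgAgc
exon 7 acceptor, chr10:79695608-79695627, plus strand: cccAcAgtccctggAtggcc
exon 7 donor, chr10:79695775-79695794, minus strand: cttAccAAAggctgctgccA
exon 8 donor, chr10:79696014-79696033, minus strand: AAtAcctgcggcctgAgggA
exon 9 donor, chr10:79696790-79696809, minus strand: AcAtAcctcAgggttcAgAt
The splice-site adenine is A4 at the donors of exons 3, 7 and 8, A5 at exon 1 and the exon 9 donor, and A6 at both acceptors. It lies in the intron at every site, in the invariant dinucleotide of the splice site. Of the 31 adenines, A1 of exon 1, A4 of the exon 7 acceptor, A1 and A2 of the exon 8 donor, and A1 and A3 of the exon 9 donor are intronic bystanders.

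Sets that the results turn on are shown next, with the edited bases in capitals. Each reached a mean of at least 1% of reads in some group, and not every set that did so is shown.
exon 7 donor, A4G+A7G: cttGccGaaggctgctgcca
exon 7 donor, A4G+A7G+A8G: cttGccGGaggctgctgcca
exon 7 donor, A4G+A7G+A9G: cttGccGaGggctgctgcca
exon 8 donor, A2G+A4G: aGtGcctgcggcctgaggga
exon 9 donor, A3G+A5G: acGtGcctcagggttcagat
exon 9 donor, A5G+A10G: acatGcctcGgggttcagat
exon 7 acceptor, A4G+A6G: cccGcGgtccctggatggcc
exon 1 splice site, A1G+A5G: GcttGcccgtccatggcaca
exon 1 splice site, A5G+A13G: acttGcccgtccGtggcaca
A4G+A7G of the exon 7 donor alone held 67.1% of all reads with 2 or more edits, A2G+A4G of the exon 8 donor held 9.34% and A3G+A5G of the exon 9 donor held 7.75%. These shares are pooled over samples and weight each sample by its depth.

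In all, 52 different sets of edited adenines were seen, out of 154 that the 31 adenines allow. Of these, 29 sets had 2 edits, 19 had 3 and 4 had 4, which was the largest number in a read. Reads with 2 edits numbered 46912, reads with 3 edits 3066 and reads with 4 edits 177. The splice-site adenine was part of 44 sets and of 99.1% of the reads with 2 or more edits. All edits lay at positions 1 to 10 in 98.7% of these reads, although 27 of the 52 sets had a position past 10. Most rows were rare, and 1322 of the 1939 rows had 1 read. Several rows can hold the same set, and whether the number of sets grows with depth was not tested.

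Depth ranged from 599 to 18227 reads per edited sample and from 399 to 7594 reads per control sample. Reads from PCR without molecular identifiers are not independent molecules, so all intervals here (Wilson, 95%) cover counting error only. In the 20 controls, alleles with 2 or more edits made up at most 0.0444% of reads, that is 2 of 4508 reads. In the edited samples, the reads with a gap, which were left out, made up 0.0282% to 1.96% of reads. The exon 7 donor sample SpCas-ABE8e replicate 1 was the deepest and its table has another layout than the rest. Its share of edited reads was 77.8%, against 90.5% and 89.2% in the other replicates.

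At the exon 7 donor, ABE8e left most reads with 2 or more edits. With SpCas-ABE8e, alleles with 2 or more edits held 73.3%, 85.9% and 85.1% of reads in replicates 1, 2 and 3. With SpG-ABE8e they held 70.3%, 67.9% and 70.8%. All 3 SpCas-ABE8e samples thus lay above all 3 SpG-ABE8e samples, the lowest of the former being replicate 1. With SpCas-ABEmax the share was 10.8%, 11.6% and 10.3%, and with SpG-ABEmax 4.19%, 2.70% and 3.24%. None of the 4 groups overlapped. Among reads with at least 1 edit, those with 2 or more made up 94.8% ± 0.582 (mean ± SD, n = 3, as in all values of this form) with SpCas-ABE8e and 89.0% ± 0.827 with SpG-ABE8e, against 19.0% ± 1.35 and 9.45% ± 1.49 with the ABEmax versions. The mean number of edits per edited read was 2.03 ± 0.0135 with SpCas-ABE8e and 1.20 ± 0.0146 with SpCas-ABEmax.

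One set made up nearly all of these reads. A4G+A7G joins the splice-site edit with A7G, a silent change in exon 7, and it was found in 67.8%, 78.5% and 78.1% of reads with SpCas-ABE8e and in 66.6%, 63.3% and 67.5% with SpG-ABE8e. Reads with A4G as their only edit made up 3.45%, 3.71% and 3.47% with SpCas-ABE8e, and reads with A7G as their only edit 1.04%, 0.846% and 0.649%. The joint allele was thus far more frequent than either edit alone with this editor. With SpCas-ABEmax the order was turned: A4G alone made up 26.1%, 24.7% and 27.0% of reads, A7G alone 18.8%, 18.5% and 18.2%, and A4G+A7G 7.71%, 7.93% and 7.76%. In every sample of SpCas-ABEmax, each single edit was more frequent than the joint allele. SpG-ABEmax had the same order, with A4G+A7G in 3.27%, 2.17% and 2.46% of reads.

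Sets of 3 at this site added A8G or A9G, which change a phenylalanine codon, to A4G+A7G. A4G+A7G+A8G made up 2.99%, 3.90% and 3.64% of reads with SpCas-ABE8e and 2.40%, 2.92% and 1.85% with SpG-ABE8e. A4G+A7G+A9G made up 1.84%, 2.68% and 2.39% with SpCas-ABE8e, and its mean with SpG-ABE8e was 0.960% ± 0.159. All 4 adenines from A4 to A9 were edited in 50, 47 and 52 reads with SpCas-ABE8e (0.472% ± 0.172 of reads). SpCas-ABEmax had another minor set, A7G+A8G without the splice-site edit, in 1.14%, 1.40% and 1.08% of reads. This set was lower with SpCas-ABE8e, at 0.0658%, 0.0357% and 0.0224%.

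The exon 9 donor followed, with SpG-ABE8e at 28.7%, 27.0% and 28.8% of reads with 2 or more edits and SpG-ABEmax at 0.957%, 0.920% and 0.915%. The groups stood far apart and the samples within each lay close together. A3G+A5G, which joins the splice-site edit A5G with an intronic bystander 2 bases away, was found in 22.8%, 22.1% and 23.2% of reads with SpG-ABE8e. A5G+A10G, with a silent change in the exon, made up 2.98%, 2.13% and 2.59%, and the set of all 3, A3G+A5G+A10G, made up 2.25%, 2.19% and 2.41%. Reads with 3 or 4 edits were 9.23% ± 0.453 of the reads with 2 or more at this site, a higher mean than with any other group that had at least 20 such reads in every sample. With SpG-ABEmax, A3G+A5G was the most frequent set, at 0.427% ± 0.0333 of reads.

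At the exon 8 donor, 2 or more edits were found in 21.9%, 21.7% and 22.2% of reads with SpCas-ABE8e and in 4.88%, 4.43% and 5.33% with SpG-ABE8e. SpCas-ABEmax gave 2.58%, 2.61% and 2.82%, and SpG-ABEmax 0.757%, 1.01% and 0.769%. The 4 groups did not overlap. A2G+A4G, 2 intronic changes, led in all 4 groups and made up 19.0%, 19.0% and 19.5% of reads with SpCas-ABE8e. A1G+A2G+A4G (1.19% ± 0.178) and A1G+A4G (1.09% ± 0.0197) were the other sets above 1% of reads with this editor.

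SpG-ABE8e at the exon 7 acceptor gave 14.0%, 12.3% and 8.30% of reads with 2 or more edits, nearly all of them A4G+A6G. SpG-ABEmax gave 0 of 7086, 2 of 2591 and 5 of 4576 reads. This site differed from the donors in that few reads were edited at all, 17.0% on average with SpG-ABE8e, yet 67.7% ± 1.19 of the edited reads had 2 or more edits. Reads with A6G alone, the splice-site edit, made up 3.74%, 2.91% and 2.51%, and reads with A4G alone 3.11%, 2.58% and 1.59%. The joint allele was thus more frequent than both alleles with 1 edit together in each sample.

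Alleles with 2 or more edits were rare at the exon 3 sites. The donor had 1.30%, 1.41% and 1.37% of such reads with SpG-ABE8e, where 91.9% ± 0.962 of the reads without a gap had exactly 1 edit, and 0.0770%, 0.222% and 0.204% with SpG-ABEmax. The leading set with SpG-ABE8e was A4G+A12G (1.09% ± 0.0413), whose exonic change turns a serine into proline (S36P). At the acceptor, 3, 12 and 5 reads had 2 or more edits with SpG-ABE8e, which is 0.179%, 0.539% and 0.270%, and nearly all held A6G+A13G. With SpG-ABEmax, where only 2.26% ± 0.263 of reads had any edit, there was none in 2244, 2276 and 1678 reads, and 3 reads of these totals would be 0.134%, 0.132% and 0.179%.

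By the sample labels, which could not be checked against the editor received, exon 1 was the exception to the order of the editors. With SpCas-ABEmax, 4.31%, 2.50% and 2.95% of reads had 2 or more edits, against 0.212%, 0.745% and 0.357% with SpCas-ABE8e. All 3 SpCas-ABEmax samples lay above all 3 SpCas-ABE8e samples, although the share of reads with at least 1 edit was higher with SpCas-ABE8e (44.4% against 34.1% on average). With SpG the order was that of the other sites, with 1.36%, 1.67% and 2.24% for SpG-ABE8e against 0 of 1579, 0 of 1621 and 2 of 1286 reads for SpG-ABEmax. The sets of SpCas-ABEmax were A1G+A5G (2.11%, 1.67% and 1.35% of reads) and A5G+A13G (1.45%, 0.668% and 1.52%). A13G replaces the start codon methionine by threonine (M1T), so that A5G+A13G hits the splice site and the start codon on one molecule. A5G+A13G also led with SpG-ABE8e, at 1.15%, 1.16% and 1.52% of reads, while SpCas-ABE8e had A1G+A5G in 2, 8 and 6 reads. These shares rest on few reads, 3, 14 and 13 in the SpCas-ABE8e samples, and the intervals of SpCas-ABE8e (highest upper bound 1.25%) and SpCas-ABEmax (lowest lower bound 1.52%) did not meet.

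The number of edits falls off in different ways by site and editor. At the threshold of the definition, reads with exactly 2 edits made up 75.7% ± 6.13 of the reads without a gap and reads with exactly 1 edit 4.43% ± 0.249 at the exon 7 donor with SpCas-ABE8e. With SpCas-ABEmax at the same site the values were 10.7% ± 0.615 and 47.0% ± 1.27. At the exon 8 donor with SpCas-ABE8e, exactly 2 edits were found in 20.9% ± 0.367 and exactly 1 in 67.4% ± 0.817. At the exon 9 donor with SpG-ABE8e the values were 25.6% ± 0.907 and 45.0% ± 0.806. Reads with exactly 2 edits thus outnumbered those with 1 in the 2 ABE8e groups of the exon 7 donor and in the ABE8e group of the exon 7 acceptor (11.6% ± 2.96 against 5.51% ± 1.40), and in no other group. Reads with 3 edits reached 5.87% ± 0.910 with SpCas-ABE8e and 3.40% ± 0.663 with SpG-ABE8e at the exon 7 donor, 2.54% ± 0.182 at the exon 9 donor with SpG-ABE8e and 1.31% ± 0.199 at the exon 8 donor with SpCas-ABE8e.

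The question of how the editors differ was then tested over samples, which the choice of alleles did not use. The share of reads with 2 or more edits was higher with ABE8e than with ABEmax in 9 of 10 combinations of site and Cas9, without overlap of the samples in any of the 9, and lower without overlap in the remaining one, SpCas at exon 1. Averaged over the 10 combinations the difference was 19.9 percentage points (p = 1e-05, two-sided permutation test within combinations with 100000 resamples, the smallest p they can give; adjusted p = 2e-05 over 6 tests by Benjamini-Hochberg). The average was carried in large part by the exon 7 donor, and without that site it was 7.80 points (permutation p = 2e-05). Within a single combination 3 samples against 3 cannot give an exact permutation p below 0.1, and all 10 combinations gave 0.1, also after adjustment.

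The share of edited reads that had 2 or more edits was also higher with ABE8e in 9 of 10 combinations. The difference was 27.3 points on average (permutation p = 1e-05, adjusted p = 2e-05) and 14.7 points without the exon 7 donor (permutation p = 5e-05). This share leaves out unedited reads, but it can still rise with the editing of each adenine, which was not separated here. The exon 7 acceptor with SpG-ABEmax had few edited reads (0.380% ± 0.272 of reads), and its share of 13.7% ± 14.8 is little determined. The mean number of edits per edited read was higher by 0.290 with ABE8e (permutation p = 1e-05, adjusted p = 2e-05) and by 0.154 without the exon 7 donor (permutation p = 5e-05).

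Between the Cas9 versions, compared at exon 1, the exon 7 donor and the exon 8 donor with each deaminase, SpCas editors gave a higher share of reads with 2 or more edits in 5 of 6 combinations, by 6.68 points on average (permutation p = 2e-05, adjusted p = 3e-05). The exception was again at exon 1, where SpG-ABE8e (1.76% ± 0.450) exceeded SpCas-ABE8e (0.438% ± 0.275). When adenines outside positions 3 to 9 were not counted the difference fell to 3.22 points (permutation p = 0.00515), A2G of the exon 8 donor being among those not counted. The number of edits per edited read was higher by 0.0712 with SpCas (permutation p = 0.00021, adjusted p = 0.00021), and by 0.0319 over positions 3 to 9 (permutation p = 0.00515).

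The edited sets themselves were compared one by one. Over the 10 combinations, 68 patterns of 1 or more edits had at least 10 reads, and 48.5% of them were higher in all 3 ABE8e samples than in all 3 ABEmax samples, while 32.4% were higher in all 3 ABEmax samples. Of the 41 patterns with 2 or more edits, 27 (65.9%) were higher with ABE8e and 7 (17.1%) higher with ABEmax. The minimum of 10 reads was taken over both editors together, so a set could enter through the editor with more of it, and 7 of the 41 had no read with ABEmax. These counts are therefore a description. Of the 27 patterns with 1 edit, 6 (22.2%) were higher with ABE8e and 15 (55.6%) with ABEmax. Of the 7 sets of 2 or more that were higher with ABEmax, A1G+A5G and A5G+A13G were from exon 1 with SpCas. The others were A4G+A8G, A4G+A9G, A7G+A8G and A7G+A9G at the exon 7 donor with SpCas, and A7G+A8G there with SpG. These sets at the exon 7 donor are sets that lack A4 or A7, the adenines that ABE8e edited in most reads. Shares of patterns in one sample add up to a whole, so they are not independent of each other.

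To see which edits occurred together, the share of reads with both changes of a pair was set beside the share expected if the 2 changes fell independently, which is the product of their separate shares in the same sample. The product takes all reads of a sample as alike, and transfected and untransfected cells were mixed. The ratio of observed to expected is 1 for independence and can be at most the inverse of the larger of the 2 shares. Pairs were taken where both adenines reached a mean of 1% of reads and exceeded every control, which gave 35 pairs, 22 of them with the splice-site adenine. The observed share exceeded the expected one in all 3 samples for 27 pairs and fell below it in all 3 for 4 pairs.

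The editors differed in these pairs, mainly at the exon 7 donor. With ABE8e, all 14 pairs with the splice-site adenine and all 8 pairs of other adenines were above expectation in all 3 samples, and the interval of the observed share lay above the expected share in all 3 samples for 8 and 6 of them. With ABEmax, 3 of 8 pairs with the splice-site adenine were above and 4 below expectation in all 3 samples, and of the 5 pairs of other adenines 2 were above. The 4 below and the mixed pair were from the exon 7 donor, and the 3 above from exon 1 and the exon 8 donor. The interval lay above the expected share in all 3 samples for 1 of the 8 and below it for 2. Among the 5 pairs of other adenines it lay above for 1. The ABE8e pairs came from the ABE8e groups with frequent bystanders and the ABEmax pairs from exon 1, the exon 7 donor and the exon 8 donor, so the 2 lists do not hold the same sites. Over all adenines of a protospacer, samples were counted where at least 3 reads with 2 or more edits were expected, since 6 of the 21 SpG-ABEmax samples had no such read. The observed share exceeded the expected one in 8 of 8 SpCas-ABE8e and 19 of 19 SpG-ABE8e samples, and in 6 of 9 SpCas-ABEmax and 8 of 12 SpG-ABEmax samples. Of the 7 ABEmax samples that did not exceed it, 6 were from the exon 7 donor and 1 from the exon 3 donor.

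A4G and A7G of the exon 7 donor showed both directions. With SpCas-ABE8e, both changes stood in 73.4%, 86.3% and 85.5% of the reads without a gap, where 57.6%, 78.8% and 76.9% were expected, a ratio of 1.28, 1.10 and 1.11 under a ceiling of 1.30, 1.11 and 1.12. With SpG-ABE8e the ratio was 1.27 ± 0.0169. With SpCas-ABEmax, both changes stood in 8.15%, 8.43% and 8.09% of reads where 10.3%, 10.1% and 10.2% were expected, a ratio of 0.793, 0.831 and 0.795 under a ceiling of 2.81 ± 0.0609. With SpG-ABEmax the ratio was 0.835, 0.720 and 0.831. The ratio was thus close to its ceiling in all 6 ABE8e samples and below 1 in all 6 ABEmax samples, where the interval of the observed share lay below the expected share in each. On the scale of the log2 odds ratio, A4G and A7G stood at 8.14 ± 0.42 with SpCas-ABE8e and at -0.63 ± 0.08 with SpCas-ABEmax. A4G and A8G with SpCas-ABEmax gave a ratio of 0.801 ± 0.0902, and A4G and A9G gave 0.694 ± 0.249, on fewer reads.

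Pairs of neighbouring bystanders at this site differed from A4G and A7G. A7G and A8G with SpCas-ABEmax exceeded expectation in all 3 samples with a ratio of 1.47 ± 0.0566, and the interval lay above the expected share in each. With SpG-ABEmax the same pair had 1.33, 0.786 and 1.89, with 1 sample below expectation and the interval above it in 1 of 3. A8G and A9G, adjacent adenines of one codon, had a ratio of 3.41, 3.52 and 4.15 with SpCas-ABE8e and 7.22, 3.09 and 4.76 with SpG-ABE8e, the latter on 7, 4 and 4 reads. With SpCas-ABEmax the same pair was seen in 4, 1 and 4 reads, and its ratio was 1.04, 0.211 and 1.11.

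Pairs with the splice-site adenine at the other sites are given with the largest ratio that their shares allow. A4G and A2G of the exon 8 donor had a ratio of 1.12 ± 0.0116 with SpCas-ABE8e, equal to its ceiling, as each of 1364, 1262 and 1501 reads with A2G also had A4G. With SpG-ABE8e the ratio was 1.49, 1.49 and 1.43, and with SpCas-ABEmax it was 1.13, 1.17 and 1.23 under a ceiling of 1.24, 1.31 and 1.32. A5G and A3G of the exon 9 donor had a ratio of 1.34, 1.40 and 1.36 under a ceiling of 1.34, 1.40 and 1.37. A6G and A4G of the exon 7 acceptor had the highest ratios of a pair with the splice-site adenine in an ABE8e group, 4.58, 5.42 and 7.75, under a ceiling of 5.60, 6.56 and 9.23. At exon 1, A5G and A1G with SpCas-ABEmax had a ratio of 2.51, 2.84 and 3.20 and A5G and A13G with SpG-ABE8e one of 4.46, 3.56 and 2.65. A4G and A12G of the exon 3 donor with SpG-ABE8e exceeded expectation by little (1.06 ± 0.00134, ceiling 1.07 ± 0.0105), since nearly all reads had A4G, and its interval held the expected share in every sample.

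Pairs of bystanders were also compared within reads that already had the splice-site edit. A7G and A8G of the exon 7 donor then had a ratio of 1.01, 1.02 and 1.01 with SpCas-ABE8e. A7G and A9G had one of 0.989, 1.01 and 1.00. A7G stood in 95.5% ± 0.316 of these A4G reads, so both ratios had a ceiling just above 1 and cannot show independence. A8G stood in 4.48%, 5.22% and 4.99% of the A4G reads with A7G and in 3.12%, 3.01% and 3.31% of those without it. For A9G the shares were 2.90%, 3.79% and 3.51% against 3.57%, 3.31% and 3.31%. A8G and A9G, whose ceiling is far higher, had a ratio of 2.77, 3.24 and 3.82 with SpCas-ABE8e. A1G and A2G of the exon 8 donor had 2.37, 2.25 and 2.11 with SpCas-ABE8e, and A3G and A10G of the exon 9 donor had 1.27, 1.49 and 1.37 with SpG-ABE8e. For these 3 pairs the interval of the observed share lay above the expected share in all 3 samples. The distance between the partners was 1 base for the first 2 pairs and 7 bases for the last. The set of all 3 edits was more frequent than these shares predict at the exon 8 donor (1.20% of reads against 0.535% on average) and at the exon 9 donor (2.35% against 1.71%).

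The tables hold the end point only, so the order of edits was read from nesting, that is from how often a bystander edit was found without the splice-site edit. At the exon 7 donor, 1.58%, 1.08% and 0.874% of the reads with a bystander edit lacked A4G with SpCas-ABE8e, and 2.15%, 2.16% and 2.14% with SpG-ABE8e. With SpCas-ABEmax 71.2%, 69.7% and 71.1% lacked it, and with SpG-ABEmax 81.5%, 86.8% and 83.8%. For scale, A4G was absent from 14.4% of all reads with SpCas-ABE8e, 22.8% with SpG-ABE8e, 64.4% with SpCas-ABEmax and 79.8% with SpG-ABEmax on average. Bystander reads thus lacked A4G less often than reads in general with ABE8e and more often than reads in general with ABEmax.

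At the exon 8 donor the share of bystander reads without A4G was 0.137%, 0.147% and 0.186% with SpCas-ABE8e, 10.5%, 11.5% and 7.08% with SpCas-ABEmax, 2.36%, 0% and 0.709% with SpG-ABE8e, and 9 of 36, 13 of 44 and 9 of 30 such reads with SpG-ABEmax. At the exon 9 donor, 0.520%, 0.791% and 0.315% of bystander reads lacked A5G with SpG-ABE8e and 38.2%, 36.6% and 28.6% with SpG-ABEmax. Here the ABEmax shares lay below those of all reads, which were 22.4%, 52.8% and 42.1% on average for the 3 ABEmax groups just named. Over the 5 combinations with at least 20 bystander reads in each sample, the share was lower with ABE8e without overlap in all 5, and the mean fell by 44.4 points (p = 3e-05, two-sided permutation test within combinations; adjusted p = 3.6e-05). Without the exon 7 donor it fell by 23.5 points (permutation p = 0.00024). Groups outside these combinations lacked a partner group, or a sample, with 20 bystander reads. There the share was 30.8%, 18.8% and 20.6% with SpG-ABE8e at exon 1 and 18.2%, 17.4% and 16.1% at the exon 7 acceptor. SpG-ABE8e at the exon 3 donor had 1.14%, 1.74% and 2.27%. SpCas-ABEmax at exon 1 had 3.68% and 2.78% in replicates 1 and 3. Low shares were thus not found in all ABE8e groups, nor high ones in all ABEmax groups. A sample with more reads edited at the splice site has fewer reads that can lack it, and this was not separated here.

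Where only 1 change of a pair was present it was mostly the splice-site edit. This follows whenever the splice-site adenine was edited in more reads of the sample than its partner, so it gives no order of edits. Of the reads with only 1 of A4G and A7G, 76.0%, 81.4% and 83.2% had A4G with SpCas-ABE8e and 57.0%, 56.0% and 58.6% with SpCas-ABEmax. At the exon 7 acceptor the share with A6G rather than A4G was 54.6%, 53.0% and 61.3% with SpG-ABE8e, the most even split among ABE8e pairs that hold the splice-site adenine. For A5G against A3G of the exon 9 donor it was 99.8% on average, and for A4G against A2G of the exon 8 donor it was 100% with SpCas-ABE8e.

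The bystanders in these sets differed in position and in the base before them. The splice-site adenine follows T at all 5 sites read on the minus strand and C at both acceptors. Among reads with the splice-site edit, A7 of the exon 7 donor, which follows C, was also edited in 95.5% ± 0.316 with SpCas-ABE8e and 90.3% ± 0.829 with SpG-ABE8e. A4 of the exon 7 acceptor, which follows C, was edited in 78.9% ± 2.01 and A3 of the exon 9 donor, which follows C, in 34.7% ± 0.712 with SpG-ABE8e. A2 of the exon 8 donor, which follows A, was edited in 23.4%, 22.8% and 23.1% with SpCas-ABE8e and in 6.68% ± 0.389 with SpG-ABE8e. A10 of the exon 9 donor, which follows C, was edited in 6.74% ± 0.486, and A12 of the exon 3 donor, which follows G, in 1.18% ± 0.0567. These adenines differ in site, distance and editor at once, so no single feature can be told apart.

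Some of the combined edits changed codons. Of the 52 sets, 29 included a change of an amino acid or of the start codon, but they held 7.50% of the reads with 2 or more edits, since A4G+A7G, A2G+A4G and A3G+A5G change none. The share was 81.8% ± 2.46 at the exon 3 donor and 76.5% ± 8.08 at exon 1 with SpG-ABE8e, where S36P and M1T were the main changes. It was 8.13% ± 0.603 with SpCas-ABE8e at the exon 7 donor, 5.55% ± 1.05 with SpG-ABE8e, 28.4% ± 3.51 with SpCas-ABEmax and 21.9% ± 2.19 with SpG-ABEmax. A8G alone in its codon gives F296S, A9G alone gives F296L and both together give F296P. F296P, which can only be seen in joint alleles, was found in 0.276%, 0.565% and 0.587% of reads with SpCas-ABE8e, and every one of these reads also had A4G. F296S was found in 3.71% ± 0.463 of reads with SpCas-ABE8e and in 3.54% ± 0.334 with SpCas-ABEmax, but 98.7% of the former and 28.6% of the latter had the splice-site edit in the same read. For scale, A4G stood in 85.6% of all reads without a gap with SpCas-ABE8e and in 35.6% with SpCas-ABEmax on average. All codon changes are read from DNA, and the mRNA was not measured here.

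Other substitutions were counted in the same reads. In the 29 samples with at least 100 reads of 2 or more edits, a median of 1.81% of these reads had another substitution in the protospacer, against 2.53% of reads with 1 edit and 1.98% of reads without an edit. The share was higher than in reads with 1 edit in 9 of the 29 samples.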

How the data were processed

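The authors amplified the *Ptbp1* target sites from genomic DNA by PCR, sequenced them on a MiSeq and compared each read with its reference by CRISPResso2, whose version is not given in the sources used here. For every allele in a window of 40 bases the authors deposited a count of reads and the percent of reads, which is that count divided by the sum of the table. Samples were assigned to groups by their titles and descriptions. The windows of 5 sgRNAs were reverse-complemented, and protospacers were located in GRCm39 by exact match, with exons and codons from a GENCODE transcript of 14 exons.

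Shares were computed per sample (Python 3.11.15), permutation tests were run with numpy 2.4.6 and Wilson intervals were computed with scipy 1.17.1. Groups were compared by permuting labels within combinations of site and Cas9 or deaminase (100000 resamples), and each combination by an exact permutation test, with Benjamini-Hochberg adjustment. Controls served as background. Sets of edits are named where their group mean reached 1% of reads or where they led their group, and any other set named was chosen after its values were seen. Scripts were tested on simulated data. The alleles and comparisons were chosen with earlier results of these data known. Alternatives were alleles of at least 0.2% of reads, positions 3 to 9, reads without other substitutions, alleles with the splice-site edit only, leaving out each replicate number, leaving out exon 7 donor SpCas-ABE8e replicate 1, an odds ratio in place of observed over expected, pairing by replicate number, subtraction of controls and a log2 scale with 0.1 added.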

Additional observations from a re-analysis of the deposited data

Results flagged for a closer look

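By the sample labels, the effect of the deaminase at exon 1 ran in opposite directions with the 2 Cas9 versions. The difference was set against permutations of the deaminase labels within each Cas9 (two-sided exact permutation test, 400 arrangements, smallest p 0.005). Such permutations stand for no deaminase effect with either Cas9, and not for equal effects with both. For the share of reads with 2 or more edits, ABE8e minus ABEmax was -2.82 points with SpCas and 1.71 points with SpG, a difference of -4.52 (exact permutation p = 0.005, adjusted p = 0.0183 over 11 such tests). For the share of edited reads with 2 or more edits the difference between the 2 effects was -15.1 points (p = 0.005, adjusted p = 0.0183, exact permutation test), and for the edits per edited read it was -0.153 (p = 0.005, adjusted p = 0.0183, exact permutation test). All 3 SpCas samples of one deaminase lay on one side of all 3 of the other, and all 3 SpG samples on the opposite side. This separation alone fixes p at its smallest value, so the 3 p-values add nothing to it. The same exact permutation test gave adjusted p-values of 0.183 to 0.8 at the exon 7 and exon 8 donors. There both effects ran in the same direction, and the permutation then cannot give an unadjusted p below 0.1. It thus cannot decide whether the effects there were alike.

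At the exon 7 donor the joint share of A4G and A7G lay above the share expected from independent edits in all 6 ABE8e samples and below it in all 6 ABEmax samples. The mean ratio of observed to expected was 1.16 with SpCas-ABE8e, 0.806 with SpCas-ABEmax, 1.27 with SpG-ABE8e and 0.795 with SpG-ABEmax. This difference between the deaminases was not tested.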

How the results depend on the processing

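The 6 comparisons between editors were recomputed under 72 alternatives in all. All 72 kept the direction and stayed past the threshold of 0.05, with p at most 0.0189 (permutation test, edits per edited read of SpCas against SpG without the exon 7 donor). Subtraction of controls takes the same value from both groups of a combination, so it could not change a difference. Leaving out a replicate number moved the ABE8e difference in the share of reads with 2 or more edits between 19.7 and 20.3 points. Deviations of same-numbered ABE8e and ABEmax samples correlated by -0.00309, 0.0842 and 0.0632 over 46 adenines. The values thus gave no sign of pairing by replicate number, which does not show that the samples were prepared unpaired. SpCas and SpG samples were not checked in this way. With the replicate number as a block the difference was 19.9 points (permutation p = 1e-05) for ABE8e against ABEmax and 6.68 points (permutation p = 0.00021) for SpCas against SpG, and the block changed no call in the other comparisons. Without exon 7 donor SpCas-ABE8e replicate 1 the first difference was 20.3 points. Leaving out the exon 7 donor and leaving out the exon 1 SpCas samples (22.5 points, permutation p = 1e-05) were alternatives chosen after seeing the data. The 27 pairs above expectation became 27 to 29 when a replicate was left out, 27 without reads holding other substitutions and 28 by the odds ratio, and among the 13 pairs of other adenines 10 became 7 within reads with the splice-site edit. Depth limits the sites with few such reads: 3 reads are 0.0165% of the deepest edited sample and 0.501% of the shallowest.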
